A study of Mus musculus with 6 samples.

Results

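The transcription factors Gata6, Gata4, Sox17, Sox7, Hnf4a, Foxa2 and Foxq1, the receptor gene Pdgfra and the endocytic adaptor gene Dab2 mark the primitive endoderm and its descendants, and were followed here in mouse embryonic stem cells (mESCs) with and without Setd2. The members were all probe sets whose platform annotation names 1 gene and that gene 1 of these 9. This gave 23 probe sets for 9 genes, of 45037 probe sets and 18193 named genes in the table. The early specifiers were Gata6, Gata4, Sox17 and Pdgfra, with 10 probe sets, and the later factors were Sox7, Dab2, Hnf4a, Foxa2 and Foxq1, with 13.

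RNA from 3 wild type and 3 Setd2 knockout cultures was hybridised to 1 Affymetrix Mouse Genome 430 2.0 array each, and the labels call the 3 arrays of a genotype biological repeats. Setd2 encodes the methyltransferase that places trimethylation on lysine 36 of histone H3. All cells shared the strain 129SV/C57BL/6, had no treatment, and came from culture on feeder cells that was followed by settling on gelatin and 1 passage on gelatin. The labels give neither the deleted part of Setd2 nor the number of clones, so p-values measure the spread between these cultures. The stated aim was to look for genes that primitive endoderm differentiation requires, and the labels name no differentiation step before the RNA was taken.

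In the blastocyst, Fgf4 from cells biased to epiblast acts through Fgf receptors and Erk on their neighbours. There it favours Gata6 over Nanog, and Gata6 is known to act at the head of a series in which Pdgfra, Sox17, Gata4 and Sox7 follow. mESC cultures are known to hold a minor population of cells that express primitive endoderm genes beside the cells with pluripotency factors.

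Values are log2 MAS5 signals, MAS5 being an Affymetrix method that summarises each probe set as a single signal. Probe sets whose mean over the 6 arrays was at or above 5.27, the 40th percentile, were tested with limma. A probe set was called when its Benjamini-Hochberg adjusted p over all 27022 tested probe sets was under 0.05. Setd2 (1428555_at) fell by 0.82 ± 0.12 (SE) on the log2 scale (limma adjusted p = 0.0272), a call kept when knockout replicate 1 was left out but not when any other array was (0.0690 to 0.212). The knockout cells also read 11.30 for the Y-linked gene Eif2s3y, against 4.92 in wild type. Probe sets of chromosome 8 had a median difference of -0.34, against 0.01 over all tested probe sets. Differences between genotypes therefore cannot be told apart from differences between the cell lines. No member lies on chromosome 8 or Y in the RefSeq gene table. The 10 stem cell markers, Pou5f1, Sox2 and Nanog among them, all passed the filter, and 1 of them, Zfp42 on chromosome 8, fell by 1.99 on the log2 scale (limma adjusted p = 8.37e-05).

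Gata6 was the 1 member that fell in the test without a block. It encodes a zinc finger factor that directs cells to the primitive endoderm. Its brightest probe set (1425464_at) read 7.68, 7.99 and 7.80 on the wild type arrays and 6.07, 6.67 and 5.82 on the knockout arrays. All 3 knockout arrays lay below all 3 wild type arrays. The difference was -1.63 ± 0.26 (SE; 95% interval -2.22 to -1.04), a signal 3.10-fold lower, with a limma adjusted p of 0.0372. With a block for the replicate number the limma adjusted p was 0.00134. In bulk RNA, fewer cells that express Gata6 and less Gata6 RNA per cell cannot be told apart. Leaving out wild type replicate 1, 2 or 3 ended the call (limma adjusted p = 0.0776, 0.213 and 0.227), as did leaving out knockout replicate 3 (0.133), while the difference stayed between -1.88 and -1.45.

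Both other Gata6 probe sets were too dim for the filter. One (1425463_at) had means of 5.29 ± 0.63 (SD, n = 3) in wild type and 4.06 ± 0.91 in knockout cells, and its groups overlapped, since knockout replicate 2 read 4.75 and wild type replicate 2 read 4.71. The other (1443081_at) read 5.82, 4.92 and 4.94 in wild type and 2.17, 2.39 and 4.48 in knockout cells, with no overlap. In limma without the filter their adjusted p were 0.601 and 0.368.

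Of the 10 member probe sets that passed the filter, 1 was called lower and 0 higher. Among all tested probe sets 0.374% were called lower and 0.274% higher. With the replicate block 4 of the 10 were called lower, those of Gata6, Sox17 (1429177_x_at), Sox7 and Dab2 (1420498_a_at), and again 0 higher. There the background was 4.39% lower and 3.49% higher. With the block and no filter, a setting added after seeing the data, 2 of all 23 were called lower, those of Gata6 and Dab2 (1420498_a_at), and 0 higher, against 2.01% and 1.54% of the 45037 probe sets. An unadjusted p under 0.05 in limma was reached by 6 of the 10, each lower, and by 0 in the other direction, against 5.93% of all tested probe sets in the lower direction. Over all 23 member probe sets, dim ones included, 18 were lower by sign and 5 higher, and at 11 all knockout arrays lay below all wild type arrays. That separation occurred at 7.05% of the 45037 probe sets of the table. The share lower by sign was not counted over the table, where the median difference of tested probe sets was 0.01. The 23 probe sets come from 9 genes, so they are not independent of each other.

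**Figure D1:**
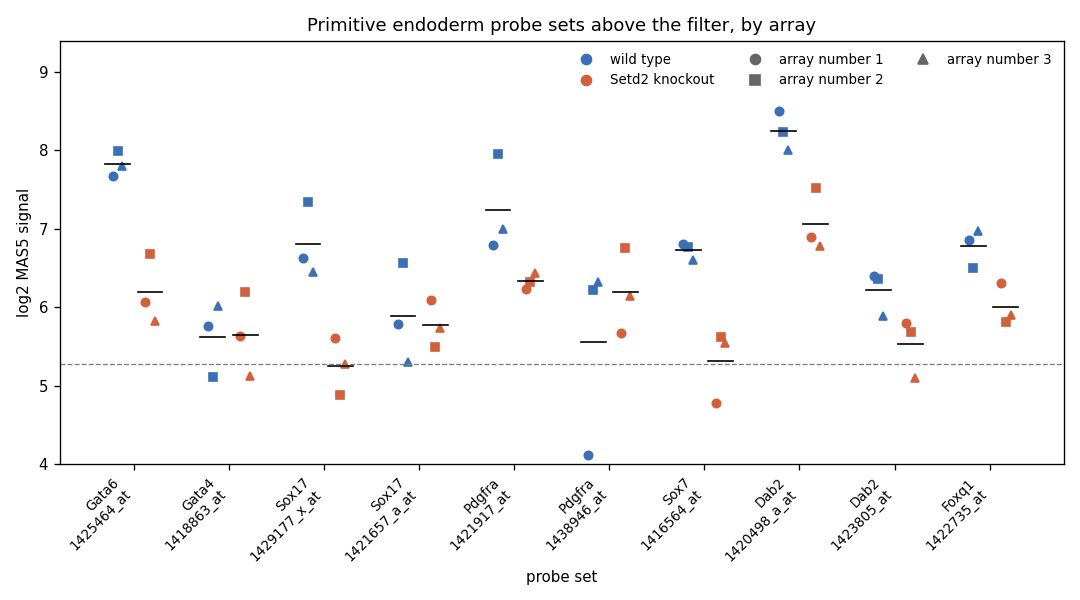
Log2 MAS5 signal (vertical axis) of the 10 member probe sets above the filter on each array, wild type in blue and knockout in orange, marker shape giving the array number, short bars the group means and the dashed line the filter value of 5.27. Gata6, Sox17 1429177_x_at, Pdgfra 1421917_at, Sox7, both Dab2 probe sets and Foxq1 separate by genotype. Gata4, Sox17 1421657_a_at and Pdgfra 1438946_at overlap.

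Sox17 encodes an HMG box factor of the endoderm. Its probe set 1429177_x_at read 6.62, 7.34 and 6.45 in wild type and 5.61, 4.88 and 5.27 in knockout cells, again with no overlap. The difference was -1.55 ± 0.34 (SE; 95% interval -2.32 to -0.78), a signal 2.93-fold lower, which missed the threshold without the block (limma adjusted p = 0.105) and passed with it (0.0221). With the block and no filter on dim probe sets it missed the threshold (0.0625). The second Sox17 probe set (1421657_a_at) read 5.78, 6.56 and 5.30 in wild type and 6.09, 5.50 and 5.74 in knockout cells. There the groups overlapped and the difference was -0.11 (95% interval -0.97 to 0.76; limma adjusted p = 0.955). The differences at both probe sets lay 1.44 apart (two-sided exact permutation p = 0.1, the smallest that 3 against 3 arrays allow, and 0.28 adjusted over the 14 probe set pairs compared). The suffix _x_at marks a probe set whose probes may also bind other transcripts, so Sox17 is described by probe set here.

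Gata4, the paralog of Gata6 that follows it in the primitive endoderm, did not separate the genotypes. The brighter probe set (1418863_at) read 5.76, 5.10 and 6.01 in wild type and 5.63, 6.20 and 5.12 in knockout cells. The difference was 0.03, with a 95% interval of -0.87 to 0.93 (limma adjusted p = 0.991; 0.983 with the replicate block). That interval leaves room for a fall as large as 0.87 in a signal close to the filter value. The dimmer probe set (1418864_at) spread from 2.32 to 5.18 within the knockout arrays alone. Within array numbers 1, 2 and 3 the brighter one differed by -0.13, 1.09 and -0.89, so its direction changed from number to number.

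Pdgfra encodes a receptor for platelet-derived growth factors that marks early primitive endoderm cells on their surface. Its probe sets gave differences of opposite sign. The brightest (1421917_at) read 6.79, 7.95 and 7.00 in wild type and 6.23, 6.33 and 6.44 in knockout cells. The groups did not overlap, and the wild type spread came mostly from replicate 2. The difference was -0.91 ± 0.31 (SE; 95% interval -1.63 to -0.19; limma adjusted p = 0.300, or 0.0601 with the block). Without wild type replicate 2 it was -0.56 (limma adjusted p = 0.667). The probe set 1438946_at read 4.12, 6.22 and 6.32 in wild type and 5.67, 6.76 and 6.15 in knockout cells, with a difference of 0.64 (95% interval -0.73 to 2.01; limma adjusted p = 0.760). This difference was -0.07 without wild type replicate 1. The dim probe set 1421916_at showed the same low array, at 2.66 in wild type replicate 1 against 5.23 and 5.18 in replicates 2 and 3. The differences of the brightest probe set and of these others lay 1.56 and 1.43 apart (two-sided exact permutation p = 0.1 for each, the smallest possible, and 0.28 adjusted over the 14 pairs).

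Pdgfra is also a gene of fibroblasts, so the levels of the feeder markers are given beside it. Of 20 feeder fibroblast markers 17 were tested, and 0 were called in either direction by limma without the block, and 1, Pdgfrb (higher), had an unadjusted p under 0.05. The brightest were Acta2, with a wild type mean of 12.02 and a knockout mean of 11.78, and Tagln, with 10.88 and 11.05. With the block Pdgfrb was called higher, but not with the block and no filter (limma adjusted p = 0.0964). The list median was -0.07. The summed signal of the 17 ranged from 5599 to 15174 over the wild type arrays and from 5014 to 13224 over the knockout arrays. In both genotypes the array numbered 1 was the lowest. Of the 37 probe sets of these markers 1 held a value of 0 on some array, and Lum and Fap lay below the filter at every probe set. Their part in the Pdgfra values was not tested.

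**Figure D2:**
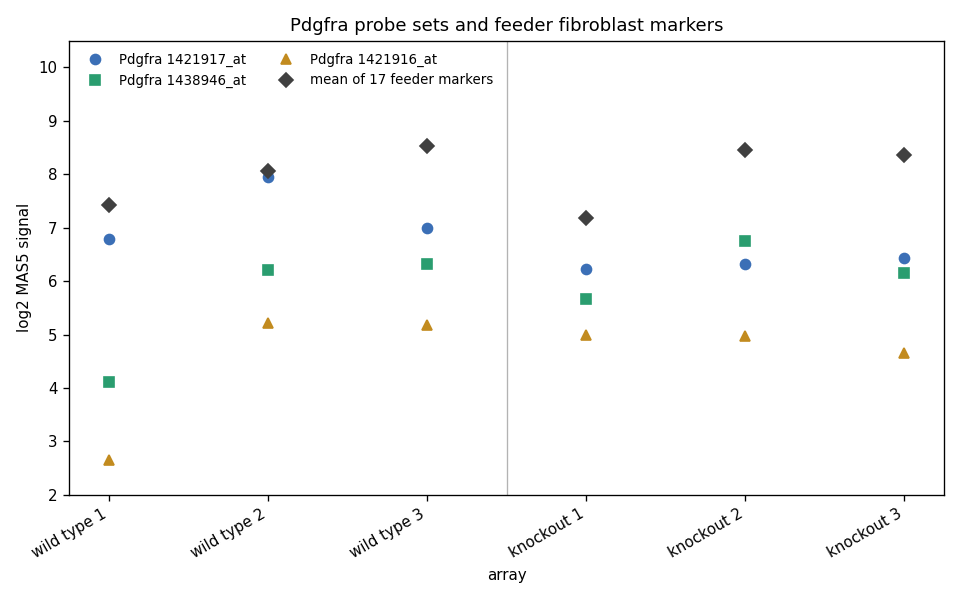
Log2 MAS5 signal (vertical axis) of the 3 Pdgfra probe sets and the mean of 17 feeder fibroblast markers (diamonds) on each of the 6 arrays, wild type left of the line. The feeder mean and all 3 Pdgfra probe sets were at their lowest wild type value on the array numbered 1, at 7.42 for the feeder mean and 6.79, 4.12 and 2.66 for 1421917_at, 1438946_at and 1421916_at. Among the knockout arrays the feeder mean (7.19), 1421917_at (6.23) and 1438946_at (5.67) were again lowest on number 1. There 1421916_at was lowest on number 3 (4.65). Pdgfra 1421917_at was lower on every knockout array than on every wild type array.

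Among the later factors, Sox7 and Dab2 passed the threshold with the block and missed it without. Sox7 encodes an HMG box factor of the same subgroup as Sox17. Its brighter probe set (1416564_at) read 6.81, 6.77 and 6.60 in wild type and 4.78, 5.62 and 5.54 in knockout cells. The groups did not overlap, and the difference was -1.42 ± 0.31 (SE; 95% interval -2.12 to -0.72), a signal 2.67-fold lower. The limma adjusted p was 0.103 without the block and 0.0213 with it, and with the block and no filter the call was lost (0.0628). Without both arrays numbered 1 the difference was -1.11 (limma adjusted p = 0.0597). The dim probe set (1432495_at) overlapped between genotypes, with means of 3.69 and 2.35.

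Dab2 encodes a clathrin adaptor that sorts cargo in endoderm cells and helps their layer to form. The probe set 1420498_a_at read 8.50, 8.23 and 8.01 in wild type and 6.89, 7.52 and 6.78 in knockout cells. Every knockout array lay below every wild type array, at -1.18 ± 0.24 (SE; 95% interval -1.74 to -0.62), a signal 2.27-fold lower. The limma adjusted p was 0.0903 without the block, 0.00453 with it, and 0.0115 with the block and no filter. The second tested probe set (1423805_at) read 6.40, 6.36 and 5.89 against 5.80, 5.69 and 5.10, likewise without overlap. Its difference was smaller, at -0.69 (95% interval -1.40 to 0.03; limma adjusted p = 0.451, or 0.217 with the block). Both dim Dab2 probe sets overlapped between genotypes, at -0.49 (1429693_at) and -0.20 (1430604_a_at). The differences of 1420498_a_at and of 1423805_at lay 0.50 apart, and those of 1420498_a_at and of 1430604_a_at 0.99 apart. For each the two-sided exact permutation p was 0.1, the smallest possible, and 0.28 adjusted over the 14 pairs. Those of 1420498_a_at and of 1429693_at lay 0.69 apart (two-sided exact permutation p = 0.4).

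Dab2 is known as a gene that GATA factors bind in endoderm cells, so its promoter windows are shown beside that of Pdgfra. Sequences are from RefSeq, build GRCm38.p6, plus strand, 250 bases before to 50 after a transcript start, 5′ to 3′. Capitals mark the letters GATA or their reverse complement TATC. The motif ATTGT, or ACAAT on the other strand, the core that SOX factors bind, was also searched and was found in none of these windows. Of the 9 members 4 had a window in the table, namely Dab2, Pdgfra, Hnf4a and Foxa2, with 8 windows in all.
Dab2 upstream start, chr15:6299539-6299838: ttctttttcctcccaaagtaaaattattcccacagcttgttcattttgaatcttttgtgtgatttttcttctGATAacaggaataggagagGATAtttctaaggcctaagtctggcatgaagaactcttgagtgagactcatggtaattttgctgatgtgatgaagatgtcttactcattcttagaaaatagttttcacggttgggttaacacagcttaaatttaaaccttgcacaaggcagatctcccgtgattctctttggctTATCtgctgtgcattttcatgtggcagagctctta
Dab2 downstream start, chr15:6386498-6386797: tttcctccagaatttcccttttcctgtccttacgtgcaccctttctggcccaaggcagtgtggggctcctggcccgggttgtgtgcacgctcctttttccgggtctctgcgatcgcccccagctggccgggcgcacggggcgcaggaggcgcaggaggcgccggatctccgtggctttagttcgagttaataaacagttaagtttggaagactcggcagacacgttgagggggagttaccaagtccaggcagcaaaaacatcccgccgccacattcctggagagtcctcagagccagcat
Pdgfra, chr5:75152001-75152300: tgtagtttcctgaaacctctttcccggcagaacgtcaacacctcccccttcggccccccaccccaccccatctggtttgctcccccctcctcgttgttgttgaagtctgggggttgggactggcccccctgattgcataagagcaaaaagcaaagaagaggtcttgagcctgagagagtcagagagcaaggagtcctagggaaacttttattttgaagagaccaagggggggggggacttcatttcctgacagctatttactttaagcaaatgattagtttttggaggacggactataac
The upstream Dab2 window held the GATA letters at 3 positions, the downstream one and the Pdgfra window at 0. Of the 8 windows of members 3 held them, against 57.9% of the 32851 windows in the table, while ATTGT or ACAAT occurred in 1 of the 8, a window of Hnf4a, against 31.0% of all windows. A match describes the letters only, and these arrays did not measure binding.

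Foxq1, a forkhead factor gene, read 6.85, 6.50 and 6.97 in wild type and 6.30, 5.81 and 5.89 in knockout cells at its brighter probe set (1422735_at). The groups did not overlap, and the difference of -0.77 ± 0.26 (SE; 95% interval -1.36 to -0.19) missed the threshold without the block and with it (limma adjusted p = 0.280 and 0.0968). The dim Foxq1 probe set (1438558_x_at) read 4.95, 5.47 and 4.96 against 4.47, 3.68 and 3.45.

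Hnf4a and Foxa2 lay below the filter at every probe set. Foxa2 encodes a forkhead factor of visceral and definitive endoderm, and its probe set (1422833_at) read 5.36, 3.89 and 5.18 in wild type and 3.66, 3.07 and 2.42 in knockout cells. All knockout arrays were lower, with a limma adjusted p of 0.446 when every probe set was tested. Hnf4a encodes a nuclear receptor of the visceral endoderm, and its 4 probe sets did not move together. One (1427000_at) read 4.22, 3.81 and 3.55 in wild type and 0.00, 2.99 and 0.60 in knockout cells. Another (1450447_at) was higher on every knockout array, at 4.94, 5.11 and 5.36 against 4.88, 2.92 and 3.11. The remaining pair (1427001_s_at and 1421983_s_at) spread over 1.20 to 2.15 (SD) within a genotype, and their groups overlapped. Among the 13 dim member probe sets, 10 were lower by sign and 3 higher, and limma without the filter gave adjusted p from 0.368 to 0.951 (lowest 0.191 with the block).

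**Figure D3:**
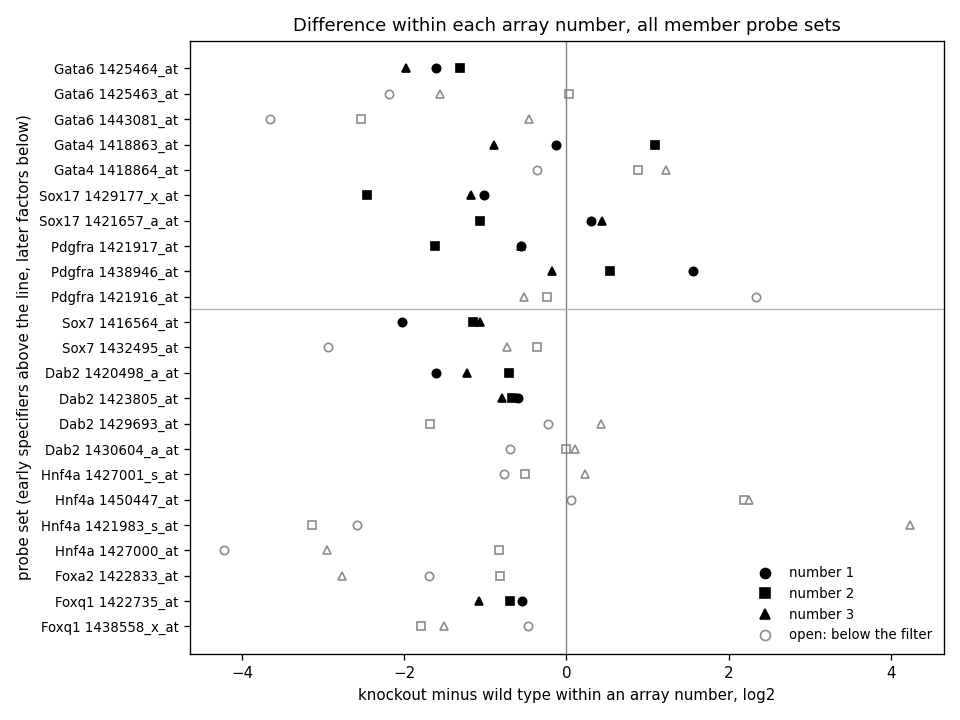
Knockout minus wild type difference (log2, horizontal axis) within array number 1, 2 and 3 at each of the 23 member probe sets, early specifiers above the line and later factors below, filled symbols above the filter and open symbols below it. At the brightest Gata6 probe set the differences within numbers 1, 2 and 3 were -1.61, -1.31 and -1.97, and at the brightest Gata4 probe set -0.13, 1.09 and -0.89.

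At the brightest probe set of each gene, the 4 early specifiers had a median difference of -1.23 and a range of -1.63 to 0.03. The 5 later factors had a median of -1.18 and a range of -1.76 to -0.35, both ends of which are probe sets below the filter (Foxa2 and Hnf4a). With values floored at log2 4 these medians were -1.23 for early specifiers and -0.85 for later factors. Over all tested probe sets, not the brightest alone, the medians were -0.51 for early specifiers and -0.98 for later factors. Of 6 tested probe sets of early specifiers 1 was called lower without the block and 2 with it. Of 4 tested probe sets of later factors 0 were called without the block and 2 were called lower with it. In each class 3 were lower at an unadjusted limma p under 0.05 without the block. Over all tested probe sets the lower shares were 0.374% called without the block, 4.39% called with it and 5.93% at the unadjusted p. All knockout arrays lay below all wild type arrays at 3 of the 6 and 4 of the 4, against 7.05% of all probe sets of the table. No test of early against later was made, because the genes were grouped with earlier results known. The mean of the brightest probe sets ran from 6.71 to 7.09 over the wild type arrays and from 5.66 to 6.02 over the knockout arrays for the early specifiers. For the later factors it ran from 5.97 to 6.56 and from 4.91 to 5.38.

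**Figure D4:**
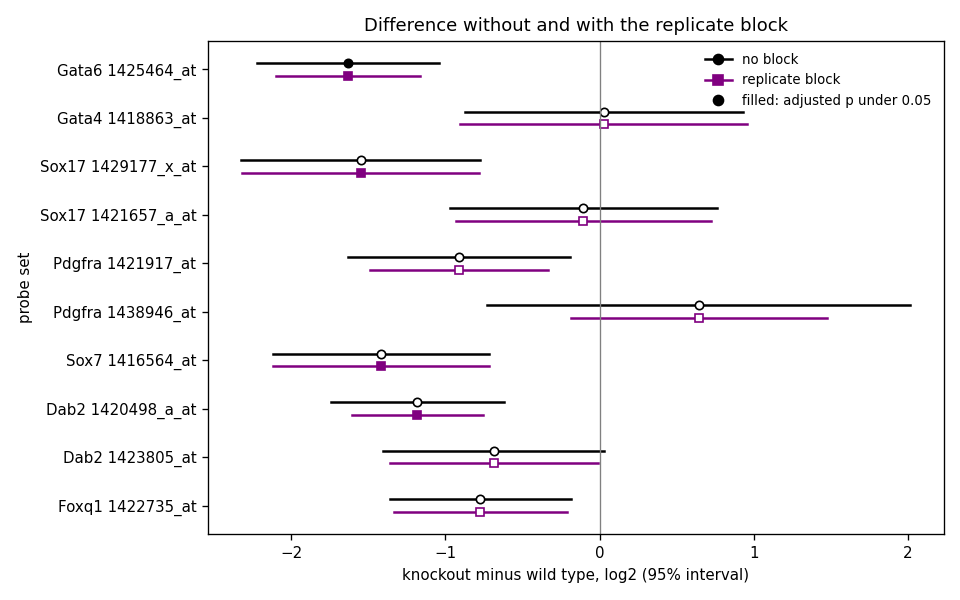
Knockout minus wild type difference (log2, horizontal axis) with its 95% interval for the 10 tested member probe sets, without the replicate block (black circles) and with it (purple squares), filled where the adjusted p was under 0.05. Gata6 was filled in both fits, and Sox17 1429177_x_at, Sox7 and Dab2 1420498_a_at with the block.

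Signals that act upstream of these factors, and their partners, showed no call in limma without the block. Of 13 tested genes 0 were called, with 1, Sos1, at an unadjusted p under 0.05, and the list median was -0.05. The brightest, Sall4, a zinc finger factor of pluripotent cells, read 13.07 in both genotypes, and Nanog, which opposes Gata6, read 12.67 and 12.70. Fgf4 differed by -0.02 and Fgfr2 by -0.26. The receptor gene Fgfr1, which lies on chromosome 8, differed by -0.35 (limma adjusted p = 0.443, or 0.0835 with the block), and by -0.45 without both arrays numbered 1, where it was called (0.0453). The ligand genes of Pdgfra differed by 0.27 (Pdgfa) and -0.28 (Pdgfc). With the block 1 of the 13 was called, Sos1, an exchange factor that activates Ras, which was higher by 0.42 (limma adjusted p = 0.0163).

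Among genes expressed downstream or in the descendants of the primitive endoderm, 28 of 38 listed genes were tested, and 3 fell and 0 rose. Over all tested probe sets 0.374% were called lower and 0.274% higher, or 4.39% and 3.49% with the block. Srgn, a proteoglycan core protein gene, fell by 2.57 on the log2 scale (limma adjusted p = 0.00635). Rhox5, a homeobox gene on chromosome X, fell by 1.57 (0.0173) and Col4a1, a basement membrane collagen gene, by 1.02 (0.0457). Whether the difference between the cell lines at Y-linked Eif2s3y bears on X-linked Rhox5 was not tested. Srgn kept its call without each array in turn. Rhox5 lost it without replicate 2 or 3 of either genotype (limma adjusted p = 0.0583 to 0.107), as did Col4a1 (0.156 to 0.281). Without the intensity trend both lost it (limma adjusted p = 0.0648 for Rhox5 and 0.118 for Col4a1). Col4a1 also lost it under quantile normalization (limma adjusted p = 0.0580). With the block 8 fell and 3 rose. The 5 added were Cubn, the endocytic receptor cubilin (-2.13), the laminin chain gene Lama1 (-1.42), Col4a2 (-0.72), the homeobox gene Hhex (-0.53) and the matrix protein gene Sparc (-0.49). Those higher with the block were the keratin gene Krt19 (0.97), the basement membrane gene Nid2 (0.78) and the apolipoprotein gene Apoe (0.47). Col4a1, Col4a2 and Plat lie on chromosome 8, and the list median was -0.18 with them and -0.13 without them, against 0.01 over all tested probe sets. Lamb1, Lamc1 and Otx2 differed by 0.04, -0.04 and -0.01.

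**Figure D5:**
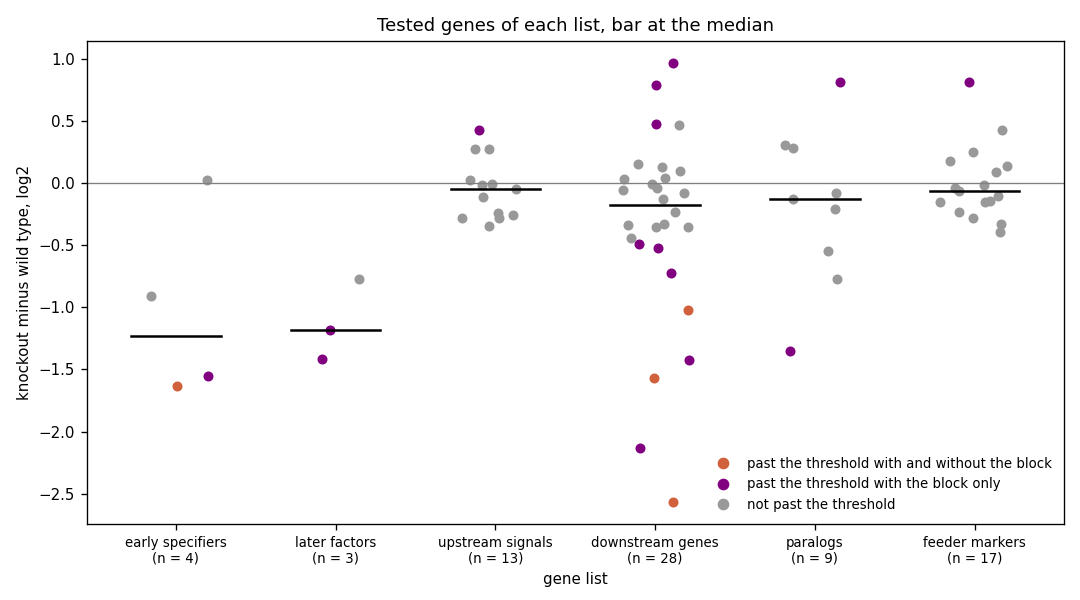
Knockout minus wild type difference (log2, vertical axis) of each tested gene at its brightest tested probe set, by gene list, with bars at the list medians. Points past the threshold without the block (orange) are Gata6, Srgn, Rhox5 and Col4a1, and those past it with the block alone are purple.

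Paralogs of the members were mixed. The list of 9 tested genes also holds Foxq1, and 0 were called without the block, with 3 lower and 1 higher at an unadjusted p under 0.05. With it Sox18, of the same subgroup as Sox7 and Sox17, was lower by 1.35 (limma adjusted p = 0.0222), and its knockout values of 4.66, 6.16 and 5.33 lay below the wild type values of 6.40, 7.01 and 6.79. Pdgfrb, the paralog of Pdgfra, was higher by 0.81 with the block (limma adjusted p = 0.0430). With the block and no filter both calls were lost (limma adjusted p = 0.0653 for Sox18 and 0.0964 for Pdgfrb). Foxa1 and Foxa3 differed by -0.08 and -0.13. Gata1 and Gata2 differed by 0.30 and -0.21.

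Markers of other cells that express some of these factors were also followed. Of 5 tested markers of mesendoderm or definitive endoderm 0 were called without or with the block and 1, Eomes, had an unadjusted p under 0.05. The brightest were Eomes (7.22 in wild type and 7.82 in knockout cells) and Mesp1 (6.88 and 6.61). Their summed signal ranged from 452 to 488 over the wild type arrays and from 510 to 576 over the knockout arrays. Cxcr4, Gsc, Lhx1 and Wnt3 lay below the filter at every probe set. Of 6 tested trophectoderm markers 0 were called without the block, with Cdx2 alone at an unadjusted p under 0.05. With the block Cdx2 was higher by 1.01 (limma adjusted p = 0.0449), a call lost with the block and no filter (0.108). The brightest, Tfap2c and Ascl2, differed by 0.35 and -0.08. Their summed signal ranged from 1008 to 2485 over the wild type arrays and from 1169 to 2926 over the knockout arrays. The part of these cells in the values above was not tested.

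The 5 genes whose signals were most like Gata6 over the 6 arrays, among 12308 named genes at their brightest tested probe sets, were Stk10, Nupr1, Slc7a6, Epor and Sc5d. Pearson's r with Gata6 ran from 0.989 to 0.993, and the 6 points share the split by genotype, so r is a description. Nupr1, a nuclear stress protein gene, and Slc7a6, an amino acid transporter gene on chromosome 8, fell by 0.99 and 1.06 on the log2 scale (limma adjusted p = 0.0397 and 0.0218). Nupr1 kept its call only without knockout replicate 1 among the 6 arrays left out in turn (otherwise 0.0679 to 0.251), and Slc7a6 only without replicate 1 of either genotype (otherwise 0.0638 to 0.184). The kinase gene Stk10 differed by -0.83 and the erythropoietin receptor gene Epor by -0.89. Both were short of the threshold without the block (limma adjusted p = 0.0709 and 0.135) and past it with the block (0.00468 and 0.0465). With the block and no filter Stk10 kept its call (0.00905) and Epor lost it (0.115). The sterol desaturase gene Sc5d differed by -0.32 (0.382, and 0.103 with the block).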

How the data were processed

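The deposited values were log2 signals on 45037 probe sets, which the authors made with MAS5, per the submitters' processing notes; no version is given in the sources used here. The log2 scale was settled from the values: the 2% trimmed mean of the linear signals lay between 497.0 and 497.3 on all 6 arrays. The table was used as deposited. Depth does not apply to arrays, and the 3 arrays per genotype limit the precision.

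Probe sets were named from the platform annotation (34945 name 1 gene, 932 several, 9160 unnamed here), and 34741 symbols were updated through gene identifiers in a RefSeq table of GRCm38.p6. After the filter at the 40th percentile of the mean, limma 3.58.1 in R 4.3.3 (lmFit, eBayes with an intensity trend, two-sided) was fitted over 27022 probe sets, and checked on simulated data. Detection calls were not used here, so folds of dim probe sets carry no bound.

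Same-numbered arrays correlated in their deviations from the genotype means at r = 0.50, 0.23 and 0.24 for numbers 1, 2 and 3, each above 0.1. The numbers were therefore treated as pairs in the fit with the block, on these same data and not on the labels. Unlike numbers gave -0.37 to 0.23, and wild type 2 with knockout 3 (0.23) and wild type 3 with knockout 2 (0.17) also passed 0.1. The correlations thus set number 1 apart but do not show that numbers 2 and 3 are pairs, which limits calls made with the block alone. The fit without a block is the main one, with the blocked value beside it where it changes a call.

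Named genes were all member probe sets, Setd2, called list members (or the 2 brightest, where none was called) and the 5 genes most like the member probe set with the lowest adjusted p. Eif2s3y, list genes called with the block alone and other list genes with values were added after seeing the data. Members and lists were chosen with earlier results of these data known.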

Additional observations from a re-analysis of the deposited data

How the results depend on the processing

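In the main fit 1 member probe set was called lower. This count became 0 when the filter was dropped, and 0 when the intensity trend was left out. It was 3 without both arrays numbered 1, and 4 with array weights or the replicate block. With probe sets averaged per gene, 0 members were called, but that setting gave values for Sox17, Pdgfra and Dab2 and none for Gata6. It therefore could not show whether the Gata6 call is kept. Block and no filter together, a setting added after seeing the data, gave 2 members lower, 907 lower and 692 higher over the whole table, 1 upstream gene higher, and 8 downstream genes lower and 3 higher. With the filter and without the block, the member probe sets called lower ranged from 0 to 1 with single arrays left out. Members called higher stayed at 0 in every setting run. Gata6 had limma adjusted p of 0.0611 with no filter and 0.0916 without the trend, and its direction held in every setting that gave it a value. Over the whole table, 101 lower and 74 higher probe sets became 27 and 30 without the trend, 774 and 580 with array weights, 1185 and 944 with the replicate block, and 1111 and 914 without both arrays numbered 1. With single arrays left out they ranged from 14 to 277 and from 17 to 160. Upstream signals, at 0 lower and 0 higher, gave 1 higher with array weights, with the replicate block and without both arrays numbered 1, which also gave 2 lower, Fgfr1 and Ptpn11. Downstream genes, at 3 lower and 0 higher, gave 2 lower under quantile normalization, 1 lower without the trend, 8 and 1 with array weights, 8 and 3 with the replicate block, 8 and 1 without both arrays numbered 1, and 1 to 4 lower with single arrays left out. Paralogs gave 1 lower and 1 higher with the replicate block, and 0 of each with the block and no filter. Medians of early and later genes moved by less than their spread between array numbers. Directions turned at 4 uncalled probe sets. Gata4 differed by -0.033 under quantile normalization, -0.015 with arrays centred on medians, -0.061 with array weights, and -0.25 to 0.29 with single arrays left out. Sox17 1421657_a_at ranged from -0.39 to 0.23 and Pdgfra 1438946_at from -0.074 to 1.03 with single arrays left out, and Pdgfra 1421917_at became 0.083 as the mean of all Pdgfra probe sets. As such means Sox17 differed by -0.83 and Dab2 by -0.64 (limma adjusted p = 0.410 and 0.374). For these the cause was not tested. Dim signal limits Gata4, Hnf4a and Foxa2, where 3 arrays per genotype leave wide intervals.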
